A study of Homo sapiens and Mus musculus with 13 samples.

Results

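The comparison asked what a TRIM11 guide RNA added to the transcriptome of MDA-MB-231, a human triple-negative breast cancer cell line, when KDM5C was already targeted. Both libraries labelled double knockdown (DKD1 and DKD2) were set against both libraries labelled KDM5C-KD (KDM5C-KD1 and KDM5C-KD2), that is 4 of the 7 cell line libraries and of the 13 RNA-Seq samples of the series. Of 24523 gene symbols, the 11763 with a mean of at least 1 FPKM over these 4 libraries were tested. FPKM counts sequenced fragments relative to transcript length and to all mapped fragments of the library. A gene was picked out when both libraries of a group exceeded both of the other by at least 2-fold, and 139 genes met this rule.

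Every line carried Cas9 and puromycin resistance from a lentiviral vector made in HEK-293T cells, and the knockdowns were checked by the authors at the protein level by western blot. Infected cells were selected as a population and no cloning step is described. Control received a guide against GFP. TRIM11-KD1 and TRIM11-KD2 received TRIM11 guides 1 and 2, KDM5C-KD1 and KDM5C-KD2 received KDM5C guides 1 and 2, and DKD1 and DKD2 received TRIM11 guides 1 and 2 in turn, each together with KDM5C guide 2. The DKD lines therefore share their KDM5C guide with KDM5C-KD2 and not with KDM5C-KD1. The numbers in the names do not mark the same guide in the 2 groups compared, and each group has 2 libraries.

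TRIM11 is a RING-type ubiquitin E3 ligase of the tripartite motif family, which marks substrate proteins for degradation. KDM5C is an X-linked demethylase that removes methyl groups from lysine 4 of histone H3, the trimethylated form of which marks active promoters. The study asked how far KDM5C accounts for what TRIM11 does in breast cancer cells, and here a TRIM11 guide is added in lines that already carry a KDM5C guide.

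Promoters of 4 genes from the groups described below are shown first, a pair for the MHC class II genes and a pair for genes with close copies. Each is the 250 bases before the start site in RefSeq (GRCh38.p14), 5′ to 3′ on the strand of the gene. HLA-DMB (chr6:32941029-32941278, minus strand) and CD74 (chr5:150412911-150413160, minus strand) belong to the MHC class II group. Capitals mark CCAAT, the core of the Y box, and in HLA-DMB also a match to a pattern for the X box of class II promoters.
HLA-DMB: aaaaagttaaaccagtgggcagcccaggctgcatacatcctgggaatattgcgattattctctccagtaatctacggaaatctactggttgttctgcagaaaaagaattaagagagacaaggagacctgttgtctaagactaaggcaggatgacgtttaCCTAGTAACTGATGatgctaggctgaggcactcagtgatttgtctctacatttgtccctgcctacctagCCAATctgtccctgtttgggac
CD74: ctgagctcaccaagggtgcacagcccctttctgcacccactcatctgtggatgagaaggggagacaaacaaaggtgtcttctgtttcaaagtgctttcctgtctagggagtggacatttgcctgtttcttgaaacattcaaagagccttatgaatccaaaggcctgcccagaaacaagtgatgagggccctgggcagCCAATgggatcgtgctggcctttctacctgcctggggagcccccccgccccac
On either strand, CCAAT occurs in 32.0% of all 35116 promoters of this length and the X box letters in 0.0142% of them, and the motifs do not overlap in HLA-DMB. The X box pattern had 0 matches in CD74, HLA-DMA and HLA-DPA1. HLA-DPA1 held no CCAAT either, and HLA-DRA had no promoter entry. The match in HLA-DMB is a description of letters and not of a bound site.

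The next pair shows genes with close copies. AKR1C1 (chr10:4963165-4963414, plus strand) shares an unbroken run of 245 of its 250 bases with AKR1C2, and its capitals mark CCAAT read on the other strand. The sequence of MAGEA3 (chrX:152698544-152698793, plus strand) is the same as that of MAGEA6 at all 250 positions. Its 2 matches to CCAAT, read on either strand, are not capitalised.
AKR1C1: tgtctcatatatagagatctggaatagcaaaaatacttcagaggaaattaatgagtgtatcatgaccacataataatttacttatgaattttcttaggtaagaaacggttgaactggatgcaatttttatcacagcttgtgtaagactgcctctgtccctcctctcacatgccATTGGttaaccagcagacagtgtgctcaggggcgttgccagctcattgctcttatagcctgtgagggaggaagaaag
MAGEA3: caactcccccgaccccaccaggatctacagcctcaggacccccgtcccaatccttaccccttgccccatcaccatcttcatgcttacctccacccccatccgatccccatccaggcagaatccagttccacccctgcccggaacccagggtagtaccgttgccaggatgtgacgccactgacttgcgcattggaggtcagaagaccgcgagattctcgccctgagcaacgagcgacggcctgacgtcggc
The promoters of AKR1C1 and AKR1C3 share no run longer than 12 bases. AKR1C1, AKR1C3, MAGEA3, MAGEA6, the pregnancy-specific glycoproteins and the histone genes all belong to families of similar genes, among which reads can be shared, so the level of each single member is uncertain. The transcripts themselves were not compared.

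The targeted genes were examined first. The mRNA of KDM5C (X chromosome of hg19, 53205465 to 53254604) was 18.8 FPKM in DKD1 and 22.7 in DKD2, against 20.6 in KDM5C-KD1, 21.4 in KDM5C-KD2 and 30.3 in Control. Its log2 fold change between DKD and KDM5C-KD was -0.02 (standard error 0.13, limma adjusted p = 0.964). TRIM11 (chromosome 1, 228581374 to 228594536) was 16.1 FPKM in the library labelled DKD1 and 9.38 in the library labelled DKD2, against 13.6 and 14.2 in KDM5C-KD1 and KDM5C-KD2. TRIM11 mRNA was thus above both KDM5C-KD libraries in DKD1 and below both in DKD2, and its log2 fold change was -0.16 (standard error 0.25, limma adjusted p = 0.818). The mRNA of a gene cut by Cas9 need not fall, but the level in DKD1 goes against its label. Without a KDM5C guide, TRIM11 was 12.6 FPKM in Control, 13.4 in the library labelled TRIM11-KD1 and 10.6 in the library labelled TRIM11-KD2. TRIM11 guide 1 thus went with no lower TRIM11 mRNA in either library that carries it, and both libraries with guide 2 were below Control. All names below are those of the labels, and each direction given for DKD or TRIM11-KD rests partly on a guide 1 library.

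Low FPKM values lie on steps of single fragments, which gave approximate depths of about 13800000 fragments for KDM5C-KD2, the shallowest library, to 21100000 for TRIM11-KD1, with 1 fragment on a transcript of 1 kb worth between 0.0475 and 0.0727 FPKM. The lowest FPKM values therefore stand for few fragments, and single ratios to them are not given. KDM5C-KD2 stood apart. Its correlation over the genes tested with each of the other libraries was between 0.940 and 0.964 (Pearson's r of log2(FPKM + 1)), while the other pairs reached 0.958 to 0.987. Between KDM5C-KD1 and KDM5C-KD2 650 genes were at least 2-fold apart (5.53%), between DKD1 and DKD2 631 (5.36%), and between KDM5C-KD1 and DKD1 375 (3.19%). DKD2 was closest to TRIM11-KD2, which carries the same TRIM11 guide (292 genes, 2.48%). Markers of the line were present, with vimentin between 1038 and 1309 FPKM, except SPARC, which was at most 0.612 FPKM. The 10 markers of luminal breast lines summed to 216.8 to 350.0 FPKM, nearly all of it keratin 19, and ESR1 was at most 0.0234. The 8 leukocyte markers summed to 69.0 to 114 FPKM, nearly all CD68, with NKG7 listed at 0 throughout. The 6 markers of HEK-293T, the producer line, summed to 0.568 to 3.92 FPKM, and the 7 fibroblast markers to 7.04 to 13.1.

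By the 2-fold rule 49 genes were higher in both DKD libraries than in both KDM5C-KD libraries (0.417% of the genes tested) and 90 were lower (0.765%). Without any limit on the gap, 2499 genes had both DKD libraries above both KDM5C-KD libraries (21.2%) and 2605 had both below (22.1%). Limma, fitted over the 6 knockdown libraries with 3 residual degrees of freedom, called 0 genes at an adjusted p under 0.05 (0%). The smallest limma adjusted p was 0.135, for the small RNA SNORD97, and 0.262 without small RNAs. At an unadjusted p under 0.05 it gave 1407 genes (12% of the genes tested), 706 of them higher and 701 lower in DKD. An exact permutation test of 2 libraries against 2 cannot go below p = 0.333. In this comparison of all 4 libraries no gene passed a test across all genes, and higher and lower describe these 4 libraries. In 128 of the 139 genes (92.1%) KDM5C-KD1 was nearer to the DKD values than KDM5C-KD2, as it was in 3689 of the 5104 genes (72.3%) whose groups did not overlap by any gap. Against KDM5C-KD2 alone, the library with the same KDM5C guide, 395 genes were at least 2-fold higher and 285 at least 2-fold lower in both DKD libraries.

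**Figure D1:**
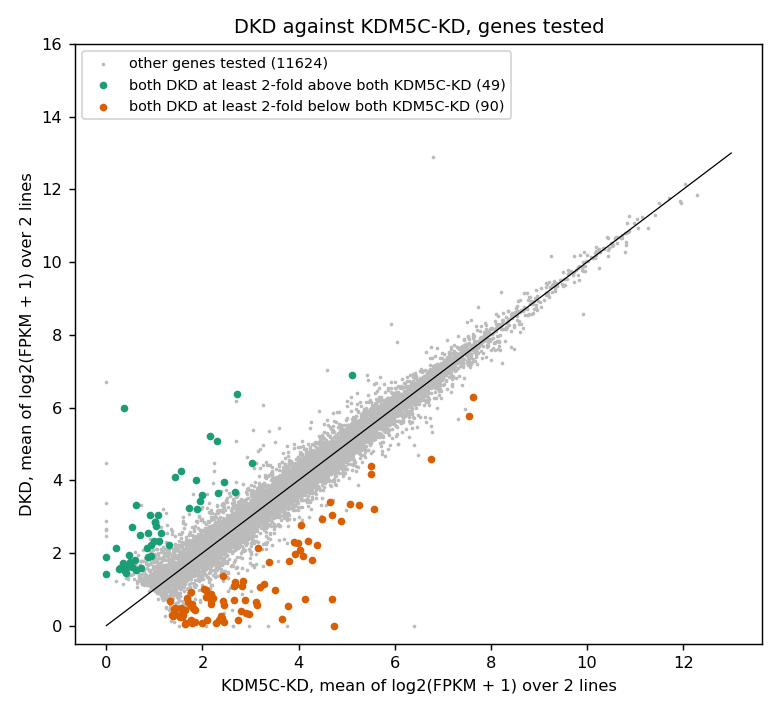
Mean of log2(FPKM + 1) over the 2 DKD libraries (y axis) against the mean over the 2 KDM5C-KD libraries (x axis) for the 11763 genes tested, with the line of equal values. The 49 genes with both DKD libraries at least 2-fold above both KDM5C-KD libraries are green and the 90 at least 2-fold below are orange, and most of both sets lie at low levels.

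Most of the genes picked out were weakly expressed. The median of the mean FPKM over the 4 libraries was 2.87 for the 49 higher genes and 3.24 for the 90 lower genes, against 12.5 for all genes tested, and 16 and 33 of them reached a mean of 5 FPKM. Of these better expressed genes, the nearest inside the limit were TNFSF9 (11.1 and 12.3 FPKM in DKD1 and DKD2, 5.52 and 5.30 in KDM5C-KD1 and KDM5C-KD2, a gap of 2.01) and CD55 (87.3 and 68.5 against 216 and 179, a gap of 2.05). The nearest outside were AFAP1L2, with a gap of 1.95, and GMFG, with a gap of 1.97. The gap is the lower value of the higher group over the higher value of the lower group.

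The 12 better expressed genes with the largest gap upward were CCL2, AKR1C3, HS3ST1, SERPINA1, PTGFRN, TP53I11, HLA-DPA1, GPR110, GNG11, AKR1C1, C3 and STAC. They include a chemokine, secreted proteins of the acute phase, detoxifying enzymes and an MHC class II chain. CCL2, the monocyte chemoattractant (chromosome 17, 32582293 to 32584227), was 112 FPKM in DKD1 and 34.2 in DKD2. It was 0.684 in KDM5C-KD1 and listed at 0 in KDM5C-KD2, with 2.82 in Control, and TRIM11-KD1 and TRIM11-KD2 had 2.32 and 23.1. The DKD values were the highest of the 7 libraries and differed from each other more than 3-fold, and the log2 fold change was 5.60 (standard error 0.97, limma adjusted p = 0.368). SERPINA1, the antitrypsin of plasma (chromosome 14, 94843084 to 94857030), was 19.6 and 16.7 FPKM in DKD1 and DKD2 and 6.48 and 0.145 in KDM5C-KD1 and KDM5C-KD2. It was 3.60 in Control and 12.9 and 13.05 in TRIM11-KD, so all 4 libraries with a TRIM11 guide lay above the 3 without. Its log2 fold change was 2.71 (standard error 0.78, limma adjusted p = 0.368). It was 4.06 against KDM5C-KD2 alone and 1.355 against KDM5C-KD1 alone, each with 1 KDM5C-KD library.

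C3, the central component of complement (chromosome 19, 6677715 to 6730573), had 16.6 and 27.3 FPKM in DKD1 and DKD2 and 6.76 and 7.52 in KDM5C-KD1 and KDM5C-KD2. Its KDM5C-KD libraries were close to each other and to Control (5.84), and TRIM11-KD1 lay between at 11.9, while TRIM11-KD2 (19.1) lay between the DKD libraries. GNG11, a G protein gamma subunit, also had TRIM11-KD2 within the range of DKD, with 107 and 131 FPKM in DKD1 and DKD2, 45.6 in KDM5C-KD1, 24.6 in KDM5C-KD2, 47.9 and 113 in the TRIM11-KD lines and 32.5 in Control. TP53I11, named for its induction by p53, was 25.4 and 42.0 against 10.02 and 1.18. Some of its exons overlap those of TSPAN18, and since the libraries do not keep strand, reads there cannot be assigned. PTGFRN, a membrane partner of tetraspanins, was 7.70 and 15.5 against 3.01 and 2.96, and Control was at 0.999.
HS3ST1, a heparan sulfate sulfotransferase, was 9.55 and 9.84 FPKM in DKD1 and DKD2 and 3.60 and 2.22 in KDM5C-KD1 and KDM5C-KD2. Neither TRIM11-KD1 (4.36) nor TRIM11-KD2 (6.18) was far from Control (5.24) for this gene. STAC, an adaptor protein, was 11.6 and 18.004 against 5.38 and 3.61, and GPR110, an adhesion G protein-coupled receptor, was 32.3 and 40.9 against 13.1 and 0.408.

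The 12 with the largest gap downward were MAGEA6, HBE1, SPOCK1, MAGEA3, LBP, NXF3, ATP10A, ZG16B, FOXA2, GJA1, PSG1 and ZP3. They include cancer-testis antigens, a matrix proteoglycan, a forkhead transcription factor and a connexin. SPOCK1, the proteoglycan testican (chromosome 5, 136310987 to 136934068), was 1.07 and 0.320 FPKM in DKD1 and DKD2 and 12.1 and 22.7 in KDM5C-KD1 and KDM5C-KD2. Control had 4.48 and TRIM11-KD1 and TRIM11-KD2 had 7.17 and 3.47, so DKD was below and KDM5C-KD above all other libraries. The log2 fold change was -3.41 (standard error 0.41, limma adjusted p = 0.281), the smallest adjusted p among the 24 genes of both groups. GJA1, connexin 43 of gap junctions (chromosome 6, 121756741 to 121770873), was 4.67 and 2.80 against 15.3 and 25.9 FPKM, while Control had 9.97 and the TRIM11-KD lines 14.4 and 5.95. ZP3, a zona pellucida glycoprotein, was 2.74 and 1.98 against 8.74 and 10.1, a log2 fold change of -1.64 (standard error 0.22, limma adjusted p = 0.308).

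FOXA2, an endodermal pioneer factor (chromosome 20, 22561636 to 22566093), was 4.74 and 1.497 FPKM in DKD1 and DKD2 and 15.7 and 16.2 in KDM5C-KD1 and KDM5C-KD2. Here KDM5C-KD lay close to Control (18.8) and TRIM11-KD2 (4.87) close to DKD1, with TRIM11-KD1 between at 12.2. LINC00261, the noncoding neighbour of FOXA2, also met the 2-fold rule downward and is named after its values were seen. ATP10A, a phospholipid flippase, was 2.21 and 0.200 against 8.03 and 13.3, and ZG16B, a secreted lectin, 3.39 and 1.67 against 11.6 and 14.3. For both genes TRIM11-KD2 was again lower than TRIM11-KD1. NXF3, a relative of the mRNA export factor NXF1, was 0.907 and 1.53 against 6.89 and 11.1, and LBP, the lipopolysaccharide-binding protein, was 0.290 and 0.218 against 2.09 and 18.6, a value that rests mostly on KDM5C-KD2. HBE1, embryonic globin epsilon (chromosome 11), was 1.18 and 0.255 against 15.7 and 38.7, but its annotated exons overlap those of HBG2 and OR51B5, and OR51B5 met the same rule.

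**Figure D2:**
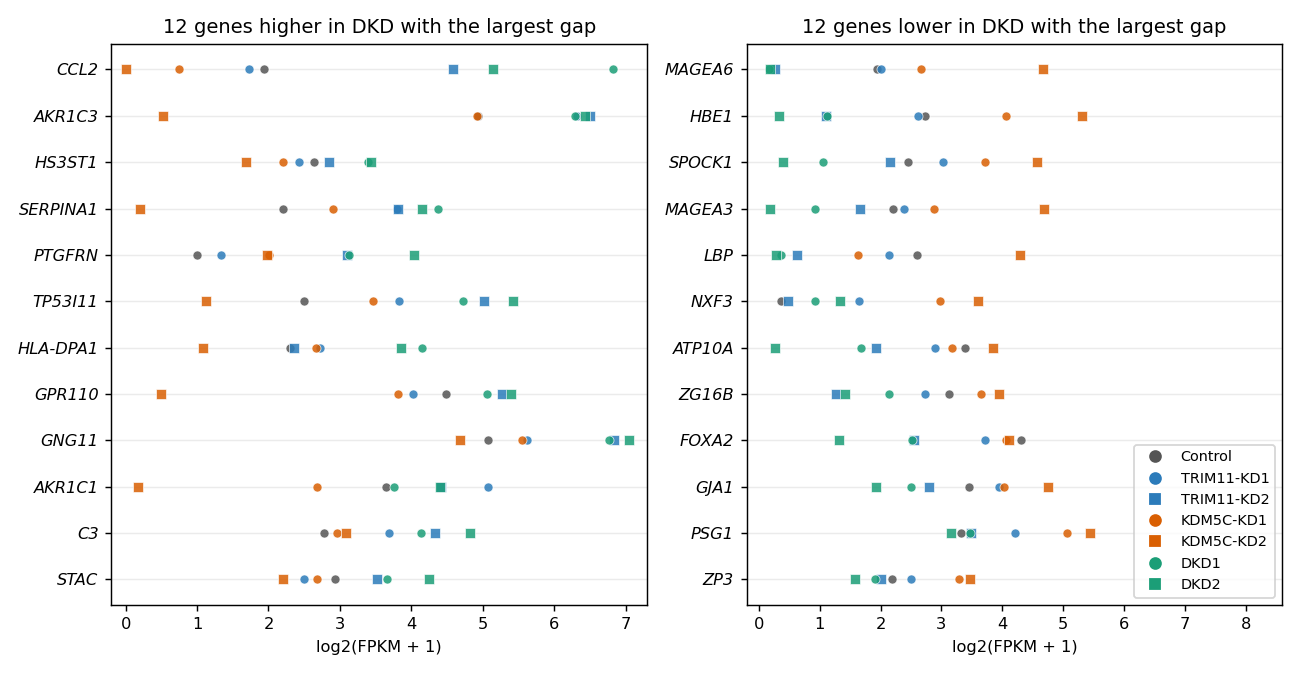
Expression as log2(FPKM + 1) (x axis) in each of the 7 libraries for the 12 genes with the largest gap in each direction and a mean of at least 5 FPKM, one symbol per library. DKD (green) lies right of KDM5C-KD (orange) in the left panel and left of it in the right panel, and KDM5C-KD2 (orange square) is the outermost KDM5C-KD library for most genes.

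MHC class II genes, which present peptides from outside the cell to CD4+ T cells, stood together among the higher genes. All 5 that were tested had both DKD libraries above both KDM5C-KD libraries. HLA-DRA, the invariant alpha chain of HLA-DR (chromosome 6, 32407655 to 32412823), was 9.05 and 5.68 FPKM in DKD1 and DKD2 and 1.75 and 0.268 in KDM5C-KD1 and KDM5C-KD2. Its log2 fold change was 2.13 (standard error 0.39, limma adjusted p = 0.368). HLA-DPA1, the alpha chain of HLA-DP (33032346 to 33048552), was 16.8 and 13.4 against 5.31 and 1.13, and some of its exons overlap those of HLA-DPB1. HLA-DMB, a subunit of the peptide exchange factor HLA-DM (32902406 to 32908805), was 1.84 and 2.07 against 0.226 and 0.182, values at which the KDM5C-KD libraries hold few fragments.
CD74, the invariant chain that guides class II molecules, and HLA-DMA, the other subunit of HLA-DM, did not reach a 2-fold gap. CD74 was 238 and 210 FPKM against 110 and 38.3, and HLA-DMA was 9.68 and 10.8 against 4.80 and 5.67. In Control these genes were at 2.80 (HLA-DRA), 3.91 (HLA-DPA1), 1.38 (HLA-DMB), 139 (CD74) and 9.34 FPKM (HLA-DMA). Control was thus above both KDM5C-KD libraries for each of them but HLA-DPA1, and below both DKD libraries for all 5. TRIM11-KD did not show the same: HLA-DRA was 2.097 and 1.78, CD74 131 and 126, HLA-DMA 5.89 and 6.13 and HLA-DMB 0.514 and 1.16 FPKM, all below Control, and HLA-DPA1 5.57 and 4.14, above it.
Whether the TRIM11 guides act differently with and without a KDM5C guide was tested by limma over all 7 libraries. Across the 11763 genes tested, 0 had an adjusted p under 0.05 and 654 an unadjusted p under 0.05. No gene was thus called to respond differently. Control is 1 library in this test.

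Of the 19 antigen presentation genes tested, class I and class II, 10 (52.6%) had both DKD libraries above both KDM5C-KD libraries. For 1 (5.26%), HLA-C, both were below, and the list median log2 fold change was 0.33, against -0.00 for all genes tested. Over all genes tested 21.2% had both above and 22.1% had both below. By class I, HLA-B was 215 and 190 FPKM in DKD1 and DKD2 against 148 and 78.1. HLA-C was 8.24 and 6.16 against 9.24 and 9.38. The HLA class I genes are alike enough that reads may be split between them. Of 39 interferon response genes 5 (12.8%) were above and 3 (7.69%) below, both shares under those of all genes tested. Their median was 0.06, which was 0.32 without DKD1, -0.12 without DKD2 and 0.09 without KDM5C-KD1. CD14, a co-receptor for lipopolysaccharide that is also a myeloid marker, was 5.24 and 4.53 FPKM against 1.27 and 1.15, while PTPRC, the pan-leukocyte CD45, was 0.0781 and 0.223 against 0.196 and 0.979. In bulk RNA, more cells that express a gene and more RNA per cell cannot be told apart.

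**Figure D3:**
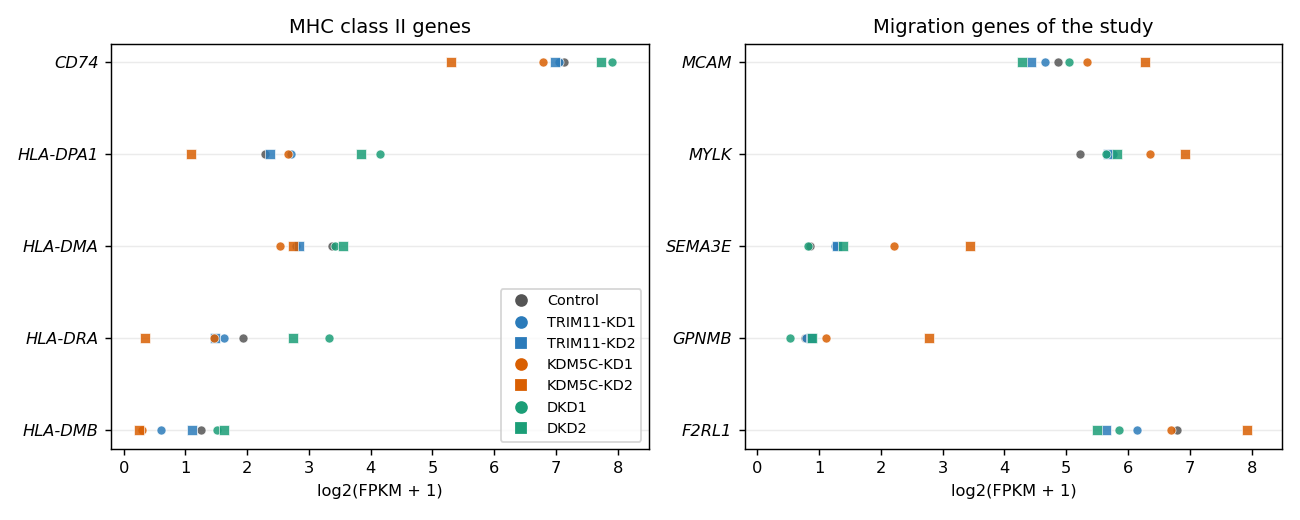
Expression as log2(FPKM + 1) (x axis) in each of the 7 libraries, one symbol per library, for 5 MHC class II genes (left) and the 5 tested migration genes of the study (right). DKD (green) is right of all other libraries for the class II genes and left of both KDM5C-KD libraries (orange) for the migration genes.

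Aldo-keto reductases, NADPH-dependent enzymes that reduce aldehydes and ketones such as steroids and prostaglandins, were also higher in DKD. Of 8 tested, 6 (75.0%, against 21.2% of all genes tested) had both DKD libraries above both KDM5C-KD libraries and 0 had both below. Their median log2 fold change was 0.91, which was 0.53 without KDM5C-KD2. AKR1C3, a ketosteroid reductase (chromosome 10, 5077546 to 5149878), was 77.6 and 85.6 FPKM in DKD1 and DKD2 and 29.2 and 0.435 in KDM5C-KD1 and KDM5C-KD2. Control was at 29.5 and TRIM11-KD at 78.9 and 89.4, so the 4 libraries with a TRIM11 guide lay together and KDM5C-KD1 lay at Control. The log2 fold change was 3.65 (standard error 1.25, limma adjusted p = 0.374). It was 5.85 against KDM5C-KD2 alone and 1.45 against KDM5C-KD1 alone, each with 1 KDM5C-KD library.
AKR1C1, which inactivates progesterone (chromosome 10, 5005445 to 5025475), was 12.5 and 20.1 against 5.42 and 0.123. AKR1B1, aldose reductase and not a close copy of the AKR1C genes, was 341 and 340 FPKM against 214 and 170, with 256 in Control and 464 and 391 in TRIM11-KD. Its log2 fold change was 0.83 (standard error 0.16, limma adjusted p = 0.368). AKR1A1, aldehyde reductase, was 33.8 and 44.9 against 36.3 and 41.6, so its groups overlapped. Of 21 targets of NRF2, the oxidant-responsive transcription factor, 10 (47.6%) were above and 4 (19.0%) below, against 21.2% and 22.1% of all genes tested. The list median was 0.36, which was 0.15 without KDM5C-KD2. The summed FPKM of the list went the other way, with 6476 and 7966 in DKD1 and DKD2 against 8385 and 8423. NQO1, a quinone reductase, was 90.5 and 115 against 66.2 and 34.6 FPKM, with 29.2 in Control and 47.4 and 92.0 in TRIM11-KD.

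Most chemokines and cytokines had a log2 fold change above 0 (21, with 5 below, against 5879 and 5884 of all genes tested), but few had groups that did not overlap. Of 26 tested, 7 had both DKD libraries above both KDM5C-KD libraries (26.9%, against 21.2% of all genes tested). For 3 both were below (11.5%, against 22.1%). The median log2 fold change of the 26 was 0.66, which was 0.19 without DKD1 and 1.03 without KDM5C-KD1. CX3CL1, fractalkine, which recruits CX3CR1-bearing cells, was 4.09 and 3.98 FPKM in DKD1 and DKD2 and 1.81 and 0.638 in KDM5C-KD1 and KDM5C-KD2. CCL26, an eotaxin, went the other way, with 1.32 and 1.29 against 4.52 and 6.40. For the neutrophil chemokines the DKD lines parted. CXCL8 was 110 FPKM in DKD1 and 14.4 in DKD2 against 17.96 and 2.65, and CXCL1 was 37.5 and 1.63 against 1.56 and 0.0749. IL11 and IL18 were lower in both DKD libraries, with 54.1 and 36.2 against 90.1 and 128 FPKM and 24.996 and 36.7 against 56.3 and 123. Of 16 feedback genes of NF-kB, the factor behind many of these cytokines, 6 (37.5%) were above and 0 below. Their median was 0.54, which was 0.08 without KDM5C-KD2, 0.02 without DKD1 and 0.85 without KDM5C-KD1. ICAM1, a leukocyte adhesion molecule of that list, was 98.0 and 76.9 against 54.7 and 43.5.

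Cancer-testis antigens, genes normally confined to germ cells that many tumours express, had the lowest median of the 13 lists plotted. Of 11 tested, 0 had both DKD libraries above both KDM5C-KD libraries and 6 (54.5%, against 22.1% of all genes tested) had both below. Their median log2 fold change was -1.52, which was -3.04 without KDM5C-KD1 and -0.37 without KDM5C-KD2. MAGEA3 and MAGEA6, partners of a ubiquitin ligase (X chromosome, 151934652 to 151938240 and 151867214 to 151870825 in hg19), were both at high levels in KDM5C-KD2. MAGEA3 was 0.887 and 0.138 FPKM in DKD1 and DKD2, 6.38 in KDM5C-KD1 and 24.8 in KDM5C-KD2. MAGEA6 was 0.123 and 0.141 against 5.33 and 24.3, and Control had 3.59 of the first and 2.84 of the second. SSX1, a synovial sarcoma antigen, was 2.82 and 2.26 against 8.94 and 36.6, and MAGEA11, an androgen receptor co-regulator, was listed at 0 in DKD1 and was 0.0940 in DKD2, against 0.581 and 9.01.
In all 4 genes KDM5C-KD2 was the highest of the 7 libraries. MAGEC2 was an exception to the direction, with 7.51 and 52.4 FPKM in DKD1 and DKD2 against 3.61 and 22.7. Of the 90 lower genes 10 (11.1%) lie on the X chromosome, against 345 (2.93%) of all genes tested, and MAGEA3, MAGEA6, MAGEA11, SSX1 and NXF3 are among the 10. The pregnancy-specific glycoproteins, immunoglobulin-like proteins of the placenta clustered on chromosome 19, had a median log2 fold change of -1.44 over 8 genes. For 4 of the 8 both DKD libraries were below both KDM5C-KD libraries, against 22.1% of all genes tested. The median was -0.76 without KDM5C-KD2 and -0.78 without DKD1. The summed FPKM of the list was 49.8 and 117.6 in DKD1 and DKD2 against 121.3 and 217.8. By this sum DKD2 lay close to KDM5C-KD1. PSG1 (43370616 to 43383974) was 10.1 and 7.93 FPKM against 32.3 and 42.3, with 8.96 in Control, and its log2 fold change was -1.93 (standard error 0.27, limma adjusted p = 0.308). PSG7 was 0.636 and 0.574 against 2.01 and 8.62, whereas PSG5 was 25.3 and 65.0 against 45.8 and 70.8 and overlapped.

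Targets of ATF4, the transcription factor of the integrated stress response, differed little in the median. Of 29 tested, 3 (10.3%, against 21.2% of all genes tested) had both DKD libraries above both KDM5C-KD libraries. For 14 (48.3%, against 22.1%) both were below. The median log2 fold change of the 29 was -0.16, which was -0.08 without KDM5C-KD2 and -0.09 without DKD2. GDF15, a stress hormone of the TGF-beta family (chromosome 19, 18485541 to 18499986), was 7.28 and 6.15 FPKM in DKD1 and DKD2 and 18.5 and 25.1 in KDM5C-KD1 and KDM5C-KD2. Control had 13.8 and TRIM11-KD1 and TRIM11-KD2 had 16.3 and 7.35. NUPR1, a small stress-induced nuclear protein, was 3.42 and 3.01 against 10.8 and 21.3, and STC2, stanniocalcin 2, was 0.156 and 0.237 against 0.489 and 4.69, which rests on KDM5C-KD2. DDIT3, the pro-apoptotic factor CHOP, was 13.5 and 7.79 against 17.8 and 21.4. The mRNA of ATF4 itself was 163 and 151 against 151 and 177, and ATF3 was higher, at 58.9 and 63.7 against 40.6 and 46.9.
Of 22 unfolded protein and heat shock genes, 2 were above and 11 below, with a median of -0.16, which was -0.10 without DKD2. Differences there were small. CALR, the chaperone calreticulin, was 784 and 681 FPKM against 843 and 974, and HSPD1, the mitochondrial chaperonin, was higher, at 294 and 315 against 225 and 218. Of 23 cholesterol synthesis genes 3 were above and 8 below, with a median of -0.17, which was -0.34 without KDM5C-KD1 and turned to 0.03 without KDM5C-KD2. Of 41 cell cycle genes 9 were above and 3 below, with a median of 0.08. That median turned to -0.08 without KDM5C-KD1 and -0.06 without DKD2, and was 0.30 without KDM5C-KD2 and 0.24 without DKD1.

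**Figure D4:**
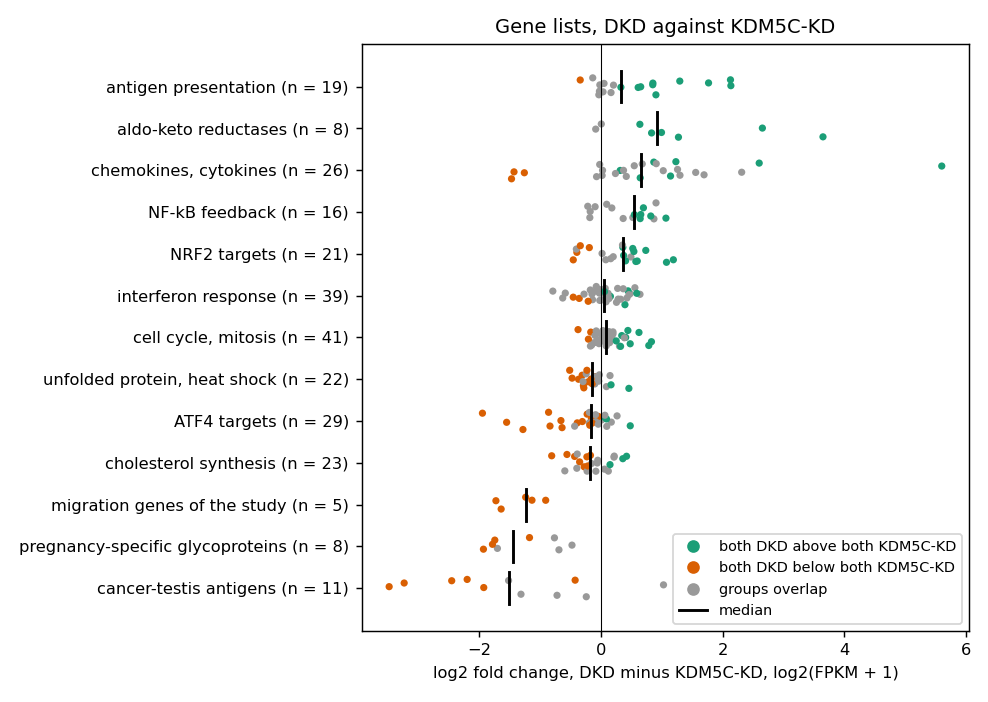
Log2 fold change of DKD minus KDM5C-KD on log2(FPKM + 1) (x axis) for each tested gene of 13 lists, with the list median as a black bar. Green genes have both DKD libraries above both KDM5C-KD libraries, orange genes have both below, and the medians run from 0.91 for aldo-keto reductases to -1.52 for cancer-testis antigens.

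The migration genes that the study drew attention to were chosen on these same libraries, so their direction is not independent evidence. All 5 that were tested had both DKD libraries below both KDM5C-KD libraries, with a median log2 fold change of -1.24. SEMA3E, a secreted semaphorin that binds plexin D1 (chromosome 7, 82992554 to 83278455), was the only member past the 2-fold rule, at 0.759 and 1.61 FPKM in DKD1 and DKD2 and 3.62 and 9.88 in KDM5C-KD1 and KDM5C-KD2. MCAM, the adhesion molecule CD146 (chromosome 11, 119179239 to 119192231), was 32.2 and 18.6 against 39.3 and 76.6, with 28.1 in Control. Its groups were 1.22-fold apart at the nearest, its log2 fold change was -1.13 (standard error 0.37, limma adjusted p = 0.373), and some of its exons overlap those of CBL. MYLK, myosin light chain kinase, was 48.8 and 55.3 against 80.9 and 120, F2RL1, the receptor PAR2, 56.8 and 44.1 against 103 and 243, and GPNMB, a melanosomal glycoprotein, 0.438 and 0.845 against 1.16 and 5.83. NTF3 and FERMT3 had a mean under 1 FPKM and were not tested. NTF3 was 0.758 and 0.163 against 1.23 and 0.900, and FERMT3 was 0.842 and 0.158 against 1.26 and 0.993.
For all 5 tested genes KDM5C-KD2 was the highest of the 7 libraries. Without it the median of the 5 log2 fold changes was -0.66, and without KDM5C-KD1 it was -2.07. Other lists of cell shape and movement had medians near 0. Of 29 actomyosin and focal adhesion genes 10 (34.5%) were above and 3 (10.3%) below. Their median was 0.09, which was 0.00219 without KDM5C-KD2 and 0.17 without KDM5C-KD1. Of 12 integrins 2 (16.7%) were above and 4 (33.3%) below, with a median of -0.02. That value turned to 0.06 without KDM5C-KD1 and was -0.14 without KDM5C-KD2, -0.17 without DKD1 and -0.05 without DKD2. Among matrix proteins, TNC, tenascin C, was 6.17 and 10.96 FPKM against 2.42 and 2.96, and COL11A1, a chain of type XI collagen, was 0.148 and 0.426 against 1.05 and 26.3, of which the last decides its fold change (-2.55, standard error 1.08, limma adjusted p = 0.431). SEMA6B, a transmembrane semaphorin, was higher, at 13.2 and 9.94 against 4.89 and 3.26. ST14, the protease matriptase of epithelia, was 0.855 and 0.614 against 2.74 and 3.77. The histone genes HIST1H3B (listed at 0 and 0.566 against 1.34 and 2.13) and HIST1H3H (0.217 and 0.752 against 1.72 and 3.18) also met the rule downward, but most histone mRNAs lack the poly(A) tail these libraries select for.

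The 2-fold rule used neither Control nor TRIM11-KD, so these 3 libraries show lines with the same TRIM11 guides and no KDM5C guide beside the line with neither, though TRIM11 mRNA was not lower in TRIM11-KD1. Of the 49 genes higher in DKD, 20 were at least 1.5-fold above Control in both TRIM11-KD libraries (40.8%) and 1 was at least 1.5-fold below (2.04%). Over all genes tested the shares were 2.56% above and 1.85% below. Of the 90 genes lower in DKD, 12 were at least 1.5-fold below Control in both TRIM11-KD libraries (13.3%) and 5 were above (5.56%). Weakly expressed genes vary more between any libraries, the genes picked out were weaker than the rest, and Control is 1 library, so no p is given. With 1 FPKM added to each value, 17 of the 32 genes to the same side remained past 1.5-fold.
TRIM11-KD2 was further from Control than TRIM11-KD1 over all genes tested too. There 7.42% were at least 1.5-fold above Control in TRIM11-KD2 and 8.09% below, against 4.36% and 3.18% in TRIM11-KD1. For the higher genes 33 of 49 were at least 1.5-fold above Control in TRIM11-KD2 and 22 in TRIM11-KD1, and for the lower genes 54 of 90 were at least 1.5-fold below in TRIM11-KD2 and 13 in TRIM11-KD1. In TRIM11-KD1 alone 8 of the higher genes were at least 1.5-fold below Control and 22 of the lower genes at least 1.5-fold above it, so for the lower genes this library leaned to the other side. The median log2 difference of TRIM11-KD1 from Control was 0.19 for the higher and 0.06 for the lower genes, and that of TRIM11-KD2 was 0.63 and -0.45. TP53I11, SERPINA1, AKR1C3 and C3 are examples of higher genes with both TRIM11-KD libraries at least 1.5-fold above Control. The MHC class II genes HLA-DRA and HLA-DMB were not, as given above, and among the lower genes PSG1 and NXF3 had both TRIM11-KD libraries above Control.

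**Figure D5:**
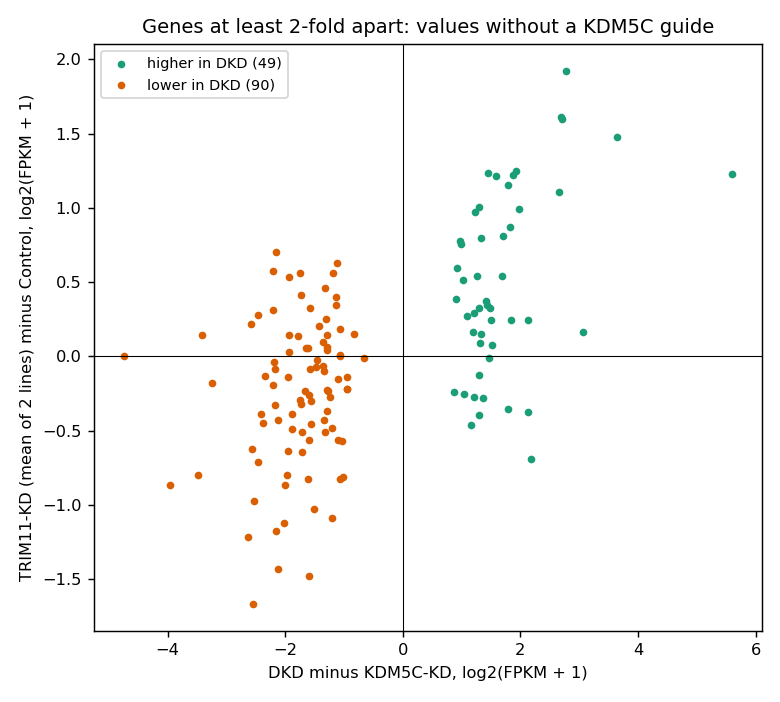
For the 139 genes at least 2-fold apart, the difference of TRIM11-KD (mean of 2 lines) from the 1 Control library (y axis) against the difference of DKD from KDM5C-KD (x axis), both on log2(FPKM + 1). The x axis shows what chose the genes, and on the y axis the 49 higher genes (green) have a median of 0.37 and the 90 lower genes (orange) a median of -0.21.

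Control lay between the groups for most genes picked out, but the rule itself sets a gap of at least 2-fold there. The share over all genes tested was not counted. Of the 49 higher genes it lay between the KDM5C-KD and DKD values for 27, at or below the higher KDM5C-KD value for 20 and at or above the lower DKD value for 2. Of the 90 lower genes it lay between for 55, at or above the lower KDM5C-KD value for 19 and at or below the higher DKD value for 16. SPOCK1 is an example with Control between the groups, and FOXA2 an example with Control above both of them.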

How the data were processed

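RNA-Seq of 7 MDA-MB-231 libraries was used, and 6 mouse tumor samples of the series were not used here. Per the study's methods, poly(A) RNA was sequenced without strand information, trimmed with Cutadapt and mapped to hg19 with HISAT2. The authors computed FPKM with Cufflinks at default settings and deposited them as 1 column per library. The submitters' processing notes name Bowtie 0.12.2 for all samples, whose role here is not given. Of 26006 rows, 27 with a date for a symbol and 1456 sharing a symbol were dropped, which left 24523 symbols, 20222 of them with an hg19 position.

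Genes with a mean of at least 1 FPKM over the 4 compared libraries were fitted with limma 3.58.1 (R 4.3.3) on log2(FPKM + 1) over the 6 knockdown libraries with a variance trend, and p-values were adjusted by Benjamini-Hochberg. Fold changes on this scale understate those of low genes. The test was also run on simulated data with independent libraries that all had the same spread at a given level. That run does not cover a library that stands apart, as KDM5C-KD2 does. The 2-fold rule used deposited values with no pseudocount. Named genes were TRIM11 and KDM5C, the 12 with the largest gap in each direction and a mean of at least 5 FPKM (leaving out ribosomal protein, small RNA, joined, LOC and LINC symbols), members of the gene lists that met the 2-fold rule, and the study's migration genes. Other list members are given as examples chosen after their values were seen. Members and lists were chosen with earlier results of these data known. Depth was approximated from steps of low FPKM values with an assumed fragment length of 200 bases. The lines of a group differ in guide and nothing else says that they are separate cultures, so p-values measure the spread between these libraries.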

Additional observations from a re-analysis of the deposited data

How the results depend on the processing

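The number of genes at least 2-fold apart followed the limits set. Of higher genes (49) there were 79 with a mean of at least 0.5 FPKM, 16 with at least 5, 347 with any mean above 0, 21 with 1 FPKM added, 140 at 1.5-fold and 15 at 3-fold. Of lower genes (90) there were 33 with a mean of at least 5 FPKM, 416 with any mean above 0, 49 with 1 FPKM added, 197 at 1.5-fold and 43 at 3-fold. Scaling by median ratios or to 1 total kept both counts within 1.5 times. Leaving out 1 library in turn gave 67 to 395 higher and 110 to 285 lower genes, since fewer values then have to be apart. Limma called 0 genes under each setting that kept all 4 compared libraries. With 1 of these left out, the lone library was assumed to vary like the others, so genes called there are not counted. Those called without KDM5C-KD2, DKD1 or DKD2 all had symbols of small RNAs. Without KDM5C-KD1, which leaves KDM5C-KD2 alone, genes other than small RNAs were called too. They include AKR1C3 (log2 fold change 5.85), SERPINA1 (4.06), CD74 (2.52), COL11A1 (-4.41) and MAGEA11 (-3.26). The small RNA symbols MIR6723, RNVU1-19 and SNORD97 were also among those called. With the replicate number as a block limma called 0 genes and 2080 had an unadjusted p under 0.05, against 1407 without the block. The number marks the same TRIM11 guide in DKD and TRIM11-KD, but not the same guide in DKD and KDM5C-KD. The difference between library 1 and library 2 correlated across genes at 0.419 between DKD and TRIM11-KD, 0.271 between DKD and KDM5C-KD and 0.0978 between TRIM11-KD and KDM5C-KD, so the numbers were not taken to pair the groups compared. Of the 32 genes that TRIM11-KD held on the same side of Control, 17 were left with 1 FPKM added, and there were 62 with any gap. With 1 TRIM11-KD library left out there were 35 to 87. The log2 fold change of TRIM11 was -0.52 to 0.20 with 1 library left out, above 0 without DKD2, and that of KDM5C was -0.15 to 0.11, above 0 without DKD1 (0.11) and without KDM5C-KD2 (0.0082); the cause was not tested. For the 48 named genes that were fitted, 748 values over 16 settings kept direction and side of the threshold, 4 passed the threshold and 3 reversed. The interaction test was chosen after seeing the data.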
